A study of Homo sapiens with 4 samples.

Results

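The small nuclear RNAs of the spliceosome and the RNAs of the Cajal body were followed in RPE1 cells after depletion of SAF-A. The set comprised every symbol beginning with SCARNA, or with RNU and a digit, that was not a pseudogene. It held 31 of the 25027 symbols in the gene tables, and membership was set by name and not by a measured value. The set and its rule were chosen with earlier results of these data known. RPE1 cells are a telomerase-immortalised line from human retinal pigment epithelium, and SAF-A, the product of HNRNPU, is a protein of the nucleus that contacts both RNA and chromatin. The 4 groups were cells given the negative control Stealth siRNA and collected at 24 h, cells given the SAF-A Stealth siRNA and collected at 24 h, and the same pair collected at 48 h. Every group received 10 nM siRNA with Lipofectamine RNAi MAX, including the controls, and a single SAF-A siRNA sequence was used. Each group was 1 library of total RNA depleted of ribosomal RNA and read as 50-base single-end reads.

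No group had a replicate, so no test within a time point was possible. An additive model of siRNA and time, which would leave 1 residual degree of freedom, was not fitted. No p-value is given, and each difference describes a pair of libraries. In bulk RNA, fewer cells that express a gene and less of its RNA per cell cannot be told apart. The deposited values imply 28083822 and 30701282 mapped reads for the control and SAF-A libraries of 24 h, and 28586051 and 1216740 for those of 48 h. HNRNPU itself read 91.2 FPKM in the control and 10.4 in the SAF-A library of 24 h, and 84.6 against 9.24 in those of 48 h, which is 11.4% and 10.9% of control. KRT8 and KRT18, keratins of simple epithelia, were above 15 FPKM in all 4 libraries, but at 48 h KRT18 was at 229 with control and 23.3 with SAF-A siRNA and KRT8 at 63.9 and 15.4. Of 7 markers of differentiated pigment epithelium, 5 were under 1 FPKM in every library, and RPE65 was listed at 0 in all 4. The other 2, MITF and OTX2, were at 4.23 to 9.01 and 2.16 to 3.77 FPKM. The summed level of the blood pair (PTPRC, CD3E) was at most 0.347 FPKM and of the endothelial pair (PECAM1, CDH5) at most 0.058 FPKM. Of the fibroblast and neuron pairs, PDGFRB was at 1.00, 2.15, 1.07 and 4.62 FPKM and TUBB3 at 76.1, 67.5, 46.5 and 16.03 FPKM in the control and SAF-A libraries of 24 h and then of 48 h. Their partners were lower, COL1A1 at 0.523 to 2.01 FPKM and ELAVL3 at no more than 0.0239 FPKM. KRT8, KRT18 and TUBB3 were lowest and PDGFRB was highest in the SAF-A library of 48 h. PDGFRB was also higher with SAF-A siRNA at 24 h. Between the control libraries of 24 h and 48 h, TUBB3 fell, and KRT18 rose from 142 to 229 FPKM and KRT8 from 41.9 to 63.9 FPKM. The part of these 4 genes in the results was not tested.

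Most introns are removed by the major spliceosome, and a small class of introns by the minor spliceosome, whose RNAs are U11, U12, U4atac, U6atac and the shared U5. U11 recognises the 5′ splice site and U12 the branch site, while U4atac delivers U6atac, which pairs with U12 to form the catalytic centre. U11, U12 and U4atac carry a U-rich Sm site on which the SMN complex closes a ring of Sm proteins, whereas U6-type RNAs end in a run of U that LSm proteins bind. Small Cajal body RNAs (scaRNAs, symbols SCARNA) guide the modification of spliceosomal RNAs in the nuclear Cajal body. Box C/D RNAs guide 2′-O-methylation by fibrillarin, box H/ACA RNAs guide pseudouridylation by dyskerin, and some scaRNAs hold both kinds of domain. Most are cut from introns of host genes transcribed by RNA polymerase II.

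The set held 4 minor spliceosome RNAs, 5 box C/D scaRNAs, 4 mixed C/D and H/ACA scaRNAs, 15 box H/ACA scaRNAs and 3 rows for U5 variants. The other U1, U2, U4, U5, U6 and U7 genes were not analysed here. The 28 RNAs other than the U5 rows were each a single exon of 125 to 421 nt on hg19 (GRCh37), and 19 of these 28 had both ends within 5 nt of a GENCODE gene model. The rows for RNU5D-1 and RNU5E-1 on chromosome 5 and for RNU5F-1 on chromosome 1 were 2, 2 and 3 short blocks with spliced lengths of 64, 65 and 72 nt, and all 3 were listed at 0 in every library. At these lengths a level per length is not stable, so no statement is made about U5.

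The 4 minor spliceosome RNAs are printed from the GRCh37 genome, 5′ to 3′ on their own strand, because all 4 were higher with SAF-A siRNA at both times. Capitals mark AATTTTT, a string that matches the U-rich core of an Sm site, searched on the strand of the RNA only.
RNU11: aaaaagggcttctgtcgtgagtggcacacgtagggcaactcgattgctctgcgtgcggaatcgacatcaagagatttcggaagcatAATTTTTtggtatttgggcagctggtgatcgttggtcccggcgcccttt
RNU12: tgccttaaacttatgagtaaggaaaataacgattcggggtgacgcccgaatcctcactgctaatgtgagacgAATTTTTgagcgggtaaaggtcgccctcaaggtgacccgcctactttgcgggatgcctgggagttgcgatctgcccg
RNU4ATAC: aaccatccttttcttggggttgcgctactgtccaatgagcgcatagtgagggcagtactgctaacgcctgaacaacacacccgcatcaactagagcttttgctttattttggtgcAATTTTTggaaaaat
RNU6ATAC: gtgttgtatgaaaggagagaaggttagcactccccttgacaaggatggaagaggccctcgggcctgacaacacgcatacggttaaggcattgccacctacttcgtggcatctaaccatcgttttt
RNU11 lies at chr1:28975112-28975246 on the plus strand, RNU12 at chr22:43011251-43011399 plus, RNU4ATAC at chr2:122288456-122288585 plus and RNU6ATAC at chr9:137029562-137029686 minus. AATTTTT starts at position 87 of RNU11, 73 of RNU12 and 116 of RNU4ATAC, counted from 1 at the 5′ end. RNU6ATAC does not hold it and ends in a run of T. The string occurred in 4 of the 28 located RNAs (14.3%; the fourth is SCARNA7) and in 5% of 419 other single-exon RNAs of 100 to under 450 nt in the files.

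Among the H/ACA scaRNAs, SCARNA22, SCARNA1 and SCARNA16 are printed since they had high ratios at both times. Capitals mark the ACA that stands 3 bases before the 3′ end.
SCARNA22: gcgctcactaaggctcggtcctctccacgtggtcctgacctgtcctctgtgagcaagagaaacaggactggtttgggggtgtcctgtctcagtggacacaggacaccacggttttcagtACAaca
SCARNA1: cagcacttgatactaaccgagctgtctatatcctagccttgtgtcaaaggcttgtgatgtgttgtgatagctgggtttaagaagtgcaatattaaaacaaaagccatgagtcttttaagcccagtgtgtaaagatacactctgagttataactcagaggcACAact
SCARNA16: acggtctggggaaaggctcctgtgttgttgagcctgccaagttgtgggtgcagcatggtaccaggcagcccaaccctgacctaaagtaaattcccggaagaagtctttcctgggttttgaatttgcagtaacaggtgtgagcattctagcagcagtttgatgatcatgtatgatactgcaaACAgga
They lie at chr4:1976363-1976487, chr1:28160912-28161077 and chr17:75085389-75085575, all on the plus strand, in introns of NSD2, PPP1R8 and SEC14L1. SCARNA16 also lies in an intron of SNHG20. ACA stood at this place in 15 of 15 H/ACA members and in 80.2% of 106 rows of H/ACA small nucleolar RNAs (symbols SNORA), and in no member of another class.

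SCARNA5 and SCARNA6 are mixed RNAs cut from introns of the same gene, ATG16L1, and are printed as a pair with one host. Capitals mark the C box (TGATGA) near the 5′ end and the last CTGA, the letters of a D box.
SCARNA5: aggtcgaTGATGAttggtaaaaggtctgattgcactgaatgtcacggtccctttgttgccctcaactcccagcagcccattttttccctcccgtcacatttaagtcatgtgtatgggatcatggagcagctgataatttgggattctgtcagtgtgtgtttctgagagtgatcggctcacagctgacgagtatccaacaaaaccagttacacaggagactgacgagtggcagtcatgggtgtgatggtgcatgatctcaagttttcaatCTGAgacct
SCARNA6: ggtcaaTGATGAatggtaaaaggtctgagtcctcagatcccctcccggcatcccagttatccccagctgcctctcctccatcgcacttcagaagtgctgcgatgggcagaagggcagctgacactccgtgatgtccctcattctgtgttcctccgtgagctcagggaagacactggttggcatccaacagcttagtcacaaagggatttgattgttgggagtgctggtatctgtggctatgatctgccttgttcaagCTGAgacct
They lie at chr2:234184372-234184649 and chr2:234197322-234197587, both plus. TGATGA was found in 5 of 5 C/D members, 4 of 4 mixed members and 3 of 15 H/ACA members, and in 6.9% of the 419 other RNAs.

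Levels are given as FPKM, which are fragments scaled to transcript length and library size. Cufflinks divides by an effective length, the number of places where a fragment of 200 ± 80 nt can start, and this was only 4.72 nt for RNU6ATAC (125 nt) but 216.03 nt for SCARNA2 (420 nt). A single read was therefore worth 7.54 FPKM for RNU6ATAC and 0.165 FPKM for SCARNA2 in the control library at 24 h, and 174 and 3.80 FPKM in the shallow SAF-A library at 48 h. Whole reads could be recovered from the deposited values of 81.8% to 100% of the members detected in a library, within 0.02 of a whole number. RPM (recovered reads scaled to the mapped reads of the library) and ratios of recovered reads are given beside FPKM, with exact 95% intervals that cover counting error only. In the SAF-A library of 48 h only 9 of 31 members had at least 10 reads, against 19 or 20 in the other 3.

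In FPKM, RNU6ATAC had the highest mean of the set over the 4 libraries (2149), followed by SCARNA2 (1205) and SCARNA16 (1051). By reads the order was different. SCARNA2, a guide of U2 methylation, gave 47.3% of all reads of the set in the control library at 24 h, 40.2% with SAF-A siRNA at 24 h, 50.7% in the control at 48 h and 38.7% with SAF-A siRNA at 48 h. Levels of RNAs under 150 nt and over 300 nt are thus not safely ranked against each other, and each RNA is compared below with itself across libraries.

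**Figure D1:**
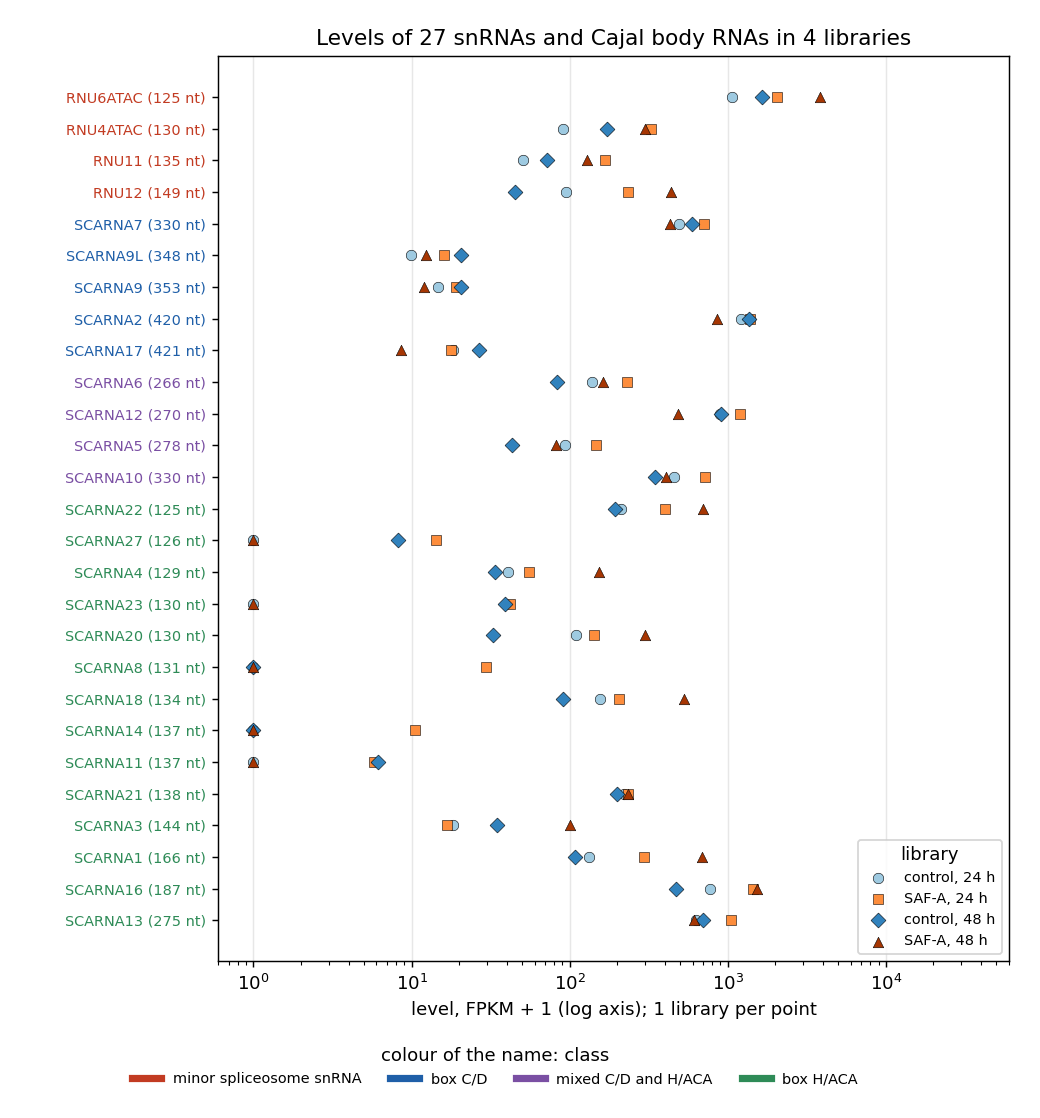
Level of each of the 27 members that averaged 1 FPKM or more, as FPKM + 1 on a log axis, with 1 point per library and names coloured by class. Minor spliceosome RNAs lie lower in both control libraries than in both SAF-A libraries, with 2 reads of U4atac and 1 of U11 in the SAF-A library of 48 h. The share of other symbols with such a separation was not counted. SCARNA27, SCARNA23, SCARNA8, SCARNA14 and SCARNA11 sit at 0 FPKM in at least 2 libraries.

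All 4 minor spliceosome RNAs were higher with SAF-A siRNA than with control siRNA at 24 h. U6atac (RNU6ATAC) was at 1071 FPKM with control siRNA at 24 h, 2056 with SAF-A siRNA at 24 h, 1638 with control siRNA at 48 h and 3830.5 with SAF-A siRNA at 48 h. Both SAF-A libraries were above both control libraries, a separation not counted for other symbols. These values rest on 142, 298, 221 and 22 reads, and the ratio of SAF-A to control was 1.92 (1.57 to 2.36) at 24 h and 2.34 (1.44 to 3.63) at 48 h.

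U4atac (RNU4ATAC), the partner that carries U6atac, was at 90.1, 324, 171 and 297 FPKM in the same order, from 14, 55, 27 and 2 reads. Its ratio was 3.59 (1.97 to 6.998) at 24 h, the highest of any member with at least 10 reads in both libraries, and 1.74 (0.201 to 6.93) at 48 h. U11 (RNU11), which recognises the 5′ splice site, was at 49.8, 167, 70.7 and 128 FPKM from 9, 33, 13 and 1 reads. Its ratio was 3.35 (1.57 to 7.97) at 24 h, while the single read at 48 h gave 1.81 (0.0425 to 12.03). U12 (RNU12), which pairs with the branch site, was at 94.1, 234, 44.4 and 434 FPKM from 25, 68, 12 and 5 reads, with ratios of 2.49 (1.55 to 4.11) and 9.79 (2.70 to 29.9). All 4 were thus higher in each SAF-A library than in the control of its time point, and at 48 h the interval excluded 1 for U6atac and U12 only. All 4 are under 150 nt. Of 90 SNORA rows of 100 to under 150 nt that averaged 1 FPKM or more, 75 were higher at 24 h and 54 at 48 h. How many other symbols had both SAF-A values above both control values was not counted, here or for the members below.

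Summed over the 4 RNAs, RPM were 6.77 (5.84 to 7.80) and 14.8 (13.5 to 16.2) in the control and SAF-A libraries at 24 h, and 9.55 (8.45 to 10.8) and 24.7 (16.6 to 35.2) at 48 h. The ratio was 2.19 (1.84 to 2.60) at 24 h and 2.58 (1.71 to 3.77) at 48 h. U6atac gave most reads of the sum, 142 of 190 and 298 of 454 at 24 h and 221 of 273 and 22 of 30 at 48 h. RNU4ATAC lies opposite an intron of CLASP1. The use of strand is not given in the sources used here, so reads from the 2 strands cannot be told apart there.

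The 5 box C/D scaRNAs, all of 330 to 421 nt, differed less at 24 h and were all lower with SAF-A siRNA at 48 h. Their median log2 differences were 0.38 and -0.74. Other symbols of 300 to under 450 nt that averaged 1 FPKM or more moved alike. Over these 56 the medians were 0.18 and -0.86, with 40 lower at 48 h. SCARNA2 was at 1210 FPKM with control siRNA at 24 h, 1388 with SAF-A siRNA at 24 h, 1365 with control siRNA at 48 h and 856 with SAF-A siRNA at 48 h. Its ratio was 1.15 (1.11 to 1.18) at 24 h and 0.627 (0.547 to 0.716) at 48 h. SCARNA7, a guide of U1 methylation, was at 494, 711, 595 and 432 FPKM, with ratios of 1.44 (1.36 to 1.53) and 0.726 (0.560 to 0.925). Both RNAs stood highest in the SAF-A library at 24 h and lowest in the SAF-A library at 48 h.

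SCARNA17 was at 17.2, 16.7, 25.8 and 7.57 FPKM, with ratios of 0.967 (0.734 to 1.28) and 0.294 (0.0353 to 1.08). The last library held 2 reads of it. SCARNA9 was at 13.7, 18.1, 19.5 and 10.98 FPKM and its X-linked relative SCARNA9L at 8.97, 15.1, 19.7 and 11.3 FPKM. The pair is 93.2% identical over 353 and 348 nt, and 1 of the 304 words of 50 bases in SCARNA9 is also in SCARNA9L. That longest shared run, at chr11:93454793-93454842 plus, is printed because only a read of this stretch would match both without a mismatch.
SCARNA9: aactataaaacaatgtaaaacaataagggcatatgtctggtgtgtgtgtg
Reads of the pair that align with mismatches could still be split between them, so they are also given together: 94, 150, 165 and 4 reads, with ratios of 1.46 (1.12 to 1.91) and 0.570 (0.153 to 1.49). Summed over the 5 RNAs, the C/D ratio was 1.20 (1.17 to 1.24) at 24 h and 0.641 (0.569 to 0.719) at 48 h. This sum is mostly SCARNA2, with 7338 of 9306 reads in the control library at 24 h.

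The 4 mixed scaRNAs, which carry both a methylation and a pseudouridylation domain and mainly guide modification of U4 and U5, were all higher with SAF-A siRNA at 24 h. SCARNA10 was at 460 FPKM with control siRNA at 24 h, 717 with SAF-A siRNA at 24 h, 343 with control siRNA at 48 h and 406 with SAF-A siRNA at 48 h, with ratios of 1.56 (1.47 to 1.66) and 1.18 (0.903 to 1.52). SCARNA12 was at 888, 1191, 899.7 and 487 FPKM, with ratios of 1.34 (1.26 to 1.42) and 0.542 (0.392 to 0.730), so the direction at 48 h was the opposite of that at 24 h. SCARNA5 was at 92.1, 147, 41.998 and 81.4 FPKM, with ratios of 1.59 (1.34 to 1.90) and 1.94 (0.814 to 3.97). Its neighbour SCARNA6 was at 138, 229, 82.3 and 162 FPKM, with ratios of 1.66 (1.43 to 1.93) and 1.97 (1.05 to 3.40). The 2 RNAs of ATG16L1 had the same order over the 4 libraries in all but the 2 middle values, and both were lowest in the control at 48 h. Summed over the 4 mixed RNAs, the ratio was 1.47 (1.41 to 1.53) at 24 h and 0.885 (0.736 to 1.06) at 48 h.

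Of the 15 box H/ACA scaRNAs, SCARNA15 had no read in any library, and 14 reached a mean of 1 FPKM. SCARNA13 and SCARNA16 were the most abundant in reads. SCARNA16 was at 770.1 FPKM with control siRNA at 24 h, 1440 with SAF-A siRNA at 24 h, 468 with control siRNA at 48 h and 1526 with SAF-A siRNA at 48 h, and both SAF-A libraries were above both controls. Its ratio was 1.87 (1.67 to 2.09) at 24 h and 3.27 (2.30 to 4.54) at 48 h. The separation of both SAF-A libraries from both controls was not counted for other symbols. The row overlaps the microRNA precursor MIR6516 by 77 bases, and reads there could be split between the 2 rows. SCARNA13 was at 631, 1048, 700.4 and 609 FPKM, with ratios of 1.66 (1.55 to 1.77) and 0.869 (0.657 to 1.13). All 275 bases of it lie in an exon of the RNA gene SNHG10, so the same limit applies.

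SCARNA1, a guide of U2 pseudouridylation, was at 132 FPKM with control siRNA at 24 h, 292 with SAF-A siRNA at 24 h, 108 with control siRNA at 48 h and 692 with SAF-A siRNA at 48 h, from 53, 128, 44 and 12 reads. Its ratio was 2.21 (1.59 to 3.10) at 24 h and 6.41 (3.08 to 12.3) at 48 h. Both SAF-A values were above both control values, a separation not counted for other symbols. SCARNA22, which lies in an intron of NSD2, was at 211, 400.2, 193 and 696 FPKM, with ratios of 1.89 (1.19 to 3.09) and 3.61 (0.917 to 10.4). SCARNA18 was at 154, 203, 89.6 and 526 FPKM, with ratios of 1.32 (0.788 to 2.24) and 5.87 (1.43 to 18.2). These 3 RNAs were highest in the SAF-A library at 48 h, where SCARNA22 and SCARNA18 had 4 reads each.

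SCARNA20 was at 109.4, 141, 31.6 and 297 FPKM, from 17, 24, 5 and 2 reads. SCARNA21 was at 218, 232, 199 and 234 FPKM, the narrowest spread of the class, with ratios of 1.06 (0.693 to 1.64) and 1.17 (0.138 to 4.53). SCARNA4 was at 39.8, 54.7, 32.6 and 153 FPKM and SCARNA3 at 17.2, 15.7, 33.8 and 99.1 FPKM, and both had 1 read in the last library. For these 4 RNAs no interval between the siRNAs excluded 1 at either time. SCARNA23 was listed at 0, 41.2, 37.9 and 0 FPKM from 0, 7, 6 and 0 reads, and the counting interval of its ratio at 24 h started at 1.32, with no upper limit. SCARNA8 was listed at 0, 28.6, 0 and 0 FPKM from 5 reads in one library, and its interval at 24 h started at 0.838, so no difference was detectable at this depth. SCARNA27 was listed at 0, 13.4, 7.17 and 0 FPKM from 2 reads and 1 read, and SCARNA11 and SCARNA14 had at most 2 reads in any library. A count of 0 in the SAF-A 48 h library allows up to 3 reads, a larger share of that library than SCARNA23 had in its control, so no lower level was detectable there. Summed over the 15 RNAs, the H/ACA ratio was 1.71 (1.62 to 1.81) at 24 h and 1.46 (1.21 to 1.75) at 48 h. This sum is mostly SCARNA13 and SCARNA16, with 1387.5 and 477.5 of 2043 reads in the control library at 24 h.

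**Figure D2:**
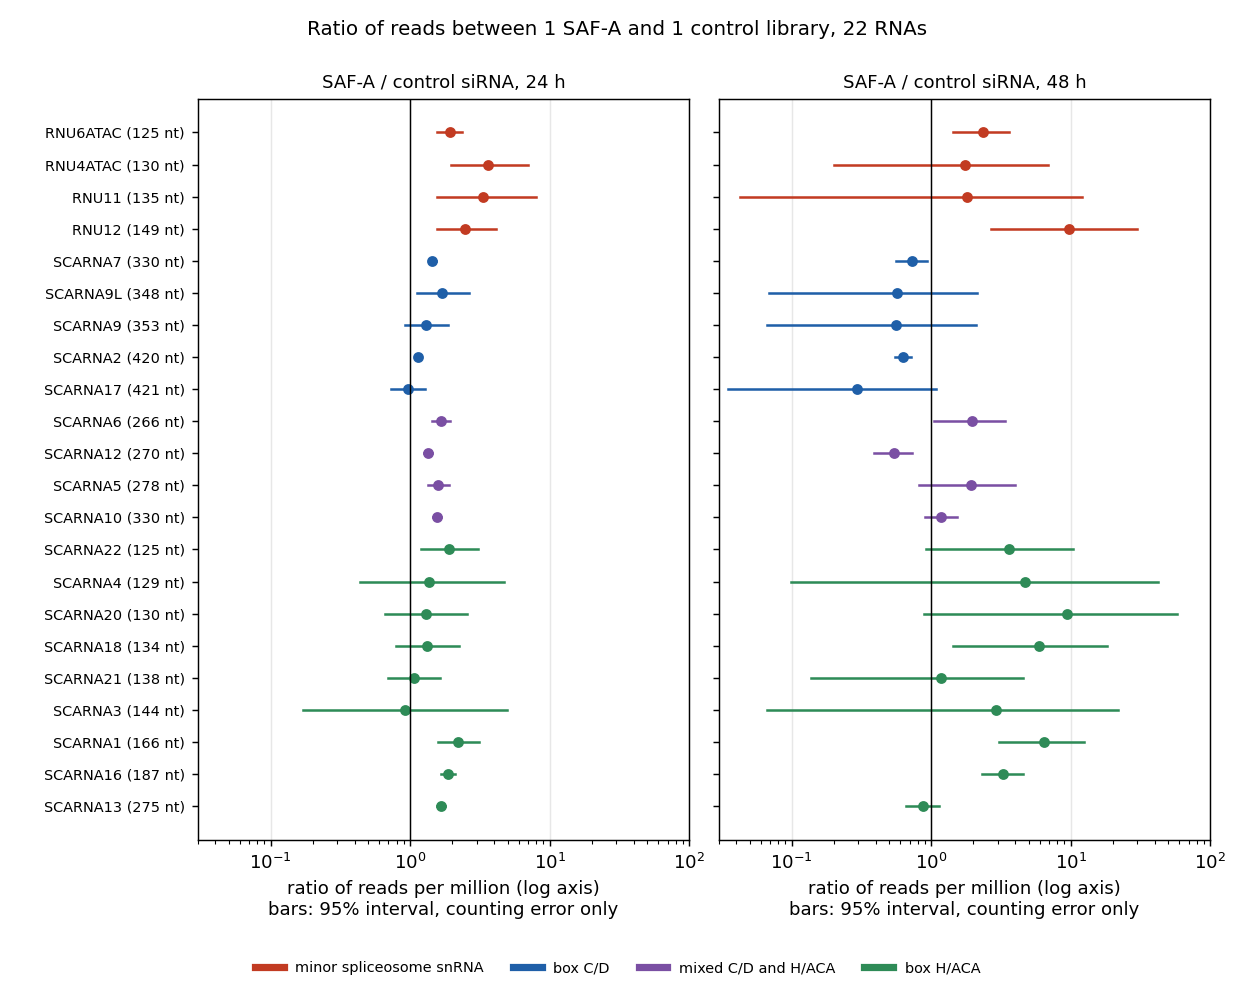
Ratio of RPM in the SAF-A library to the control library of the same time, on a log axis, for the 22 members with reads in both control libraries. Bars are 95% intervals of counting error. At 24 h RNU4ATAC, RNU11 and RNU12 have the highest ratios, followed by SCARNA1 (2.21) and U6atac (1.92), and at 48 h the box C/D RNAs lie below 1 while SCARNA1, SCARNA16, U6atac and U12 lie above it.

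For the counts, a difference in log2(FPKM + 1) of at least 2-fold was called among symbols whose 4 libraries averaged 1 FPKM or more, which 27 of the 31 members and 11631 symbols in all reached. The filter can pass a member through 1 library alone. At 24 h, 9 of the 27 members were called higher with SAF-A siRNA and 0 lower, while 1.83% of all symbols were called higher and 1.25% lower. Among the 236 other symbols of 100 to under 450 nt, 22.9% were called higher and 9.75% lower, which is the nearer background for 9 of 27 (33.3%). Of the 9 members, 5 had no read in the control library and at most 7 in the SAF-A library. The other 4 were SCARNA1, RNU4ATAC, RNU11 and RNU12. The counting interval of the ratio was above 1 for 16 members at 24 h and below 1 for 0. This interval was not computed for other symbols. Of 136 other RNAs of 100 to under 450 nt with at least 10 reads in both libraries, 123 were higher with SAF-A siRNA. The median difference of the members was 0.73 on the log2 scale, against -0.06 over all symbols. It was 0.44 over the other symbols of 100 to under 450 nt, which are of mixed kinds. At 100 to under 150 nt, 90 SNORA rows had a median of 0.77 and 49 microRNA precursors one of -0.06. The member median was 0.61 with libraries at 0 set to a floor of 3 reads. Where that floor left no difference (SCARNA27, SCARNA11 and SCARNA14), the difference was set to 0. By class the median was 1.52 for minor spliceosome RNAs, 0.91 for H/ACA, 0.65 for mixed and 0.38 for C/D scaRNAs. Rescaling to TPM, in which levels of every library have the same sum, moved the median of all symbols from -0.06 to -0.22, gave a member median of 0.54 and turned the direction of SCARNA21 alone among members with reads in both libraries. Centring on longer genes turned SCARNA17.

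At 48 h, 9 members were called higher and 4 lower, against 14.2% and 20.1% of all symbols and 28% and 39.8% of the other symbols of 100 to under 450 nt. The share called higher was thus close to that of RNAs of this length. Of the 4 called lower, SCARNA27, SCARNA23 and SCARNA11 had no read and SCARNA17 had 2 in the SAF-A library, and no counting interval of the 4 excluded 1. Of the 9 called higher, 3 had deposited intervals that did not overlap and 5 a counting interval that excluded 1. Whatever the fold, the counting interval excluded 1 for 6 members above (SCARNA18, SCARNA1, SCARNA16, RNU6ATAC, RNU12 and SCARNA6) and 3 below (SCARNA7, SCARNA2 and SCARNA12). Of these, 5 were above 1 at both times (all but SCARNA18), and SCARNA7, SCARNA2 and SCARNA12 were above 1 at 24 h and below it at 48 h. Neither kind of interval was counted over other symbols. Of 70 other RNAs of 100 to under 450 nt with at least 10 reads in both libraries at 48 h, 46 were higher with SAF-A siRNA. The libraries of the 2 time points are separate, but the difference between the time points was not tested.

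Among the members, the size of the difference followed the length of the RNA. At 24 h the summed ratio was 1.90 (1.66 to 2.18) for members of 100 to under 150 nt, 1.55 (1.49 to 1.61) for those of 150 to under 300 nt and 1.26 (1.23 to 1.29) for those of 300 to under 450 nt. At 48 h it was 2.71 (1.94 to 3.71), 1.02 (0.872 to 1.18) and 0.697 (0.626 to 0.773). Over the 19 members with at least 10 reads in both libraries at 24 h, 18 had a ratio above 1, the exception being SCARNA17. Spearman's rho between length and log2 difference was -0.49 over these 19, and -0.66 over 136 other RNAs of 100 to under 450 nt. At 48 h rho was -0.75 over 9 members and -0.50 over 70 other RNAs. These points share their libraries and their length-dependent scaling, so rho is only a description.

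Small nucleolar RNAs were also higher at these lengths, but microRNA precursors were not. Of 49 precursor rows of 100 to under 150 nt that averaged 1 FPKM or more, 14 were higher and 26 lower at 24 h. At 48 h 1 was higher and 33 were lower. Their median log2 differences were -0.06 at 24 h and -3.62 at 48 h. H/ACA small nucleolar RNAs of 100 to under 150 nt, which guide ribosomal RNA modification, had a summed ratio of 1.79 (1.75 to 1.83) at 24 h and 2.53 (2.39 to 2.67) at 48 h, and C/D small nucleolar RNAs (symbols SNORD) of that length 1.70 (1.64 to 1.75) and 2.26 (2.08 to 2.45). These lie within the intervals of the members of the same length. At 150 to under 300 nt the 8 SNORA rows had ratios of 1.72 (1.58 to 1.87) and 1.35 (0.945 to 1.89) and the single SNORD row 2.06 (1.92 to 2.21) and 1.46 (1.12 to 1.86), mostly above the members of that length at 1.55 and 1.02. Among RNAs of unrelated function, RMRP, the RNA of RNase MRP, had ratios of 1.54 (1.53 to 1.55) and 1.11 (1.09 to 1.13), and RPPH1, the RNA of RNase P, 1.25 (1.24 to 1.26) and 0.720 (0.698 to 0.743). TERC, the telomerase RNA, which is also an H/ACA RNA of the Cajal body, had ratios of 1.07 (0.976 to 1.17) and 0.391 (0.231 to 0.621). RNA was extracted on silica columns (RNeasy Mini), which recover short RNAs less completely than long ones. Recovery by length was not measured in these libraries, and its part in the differences was not tested.

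**Figure D3:**
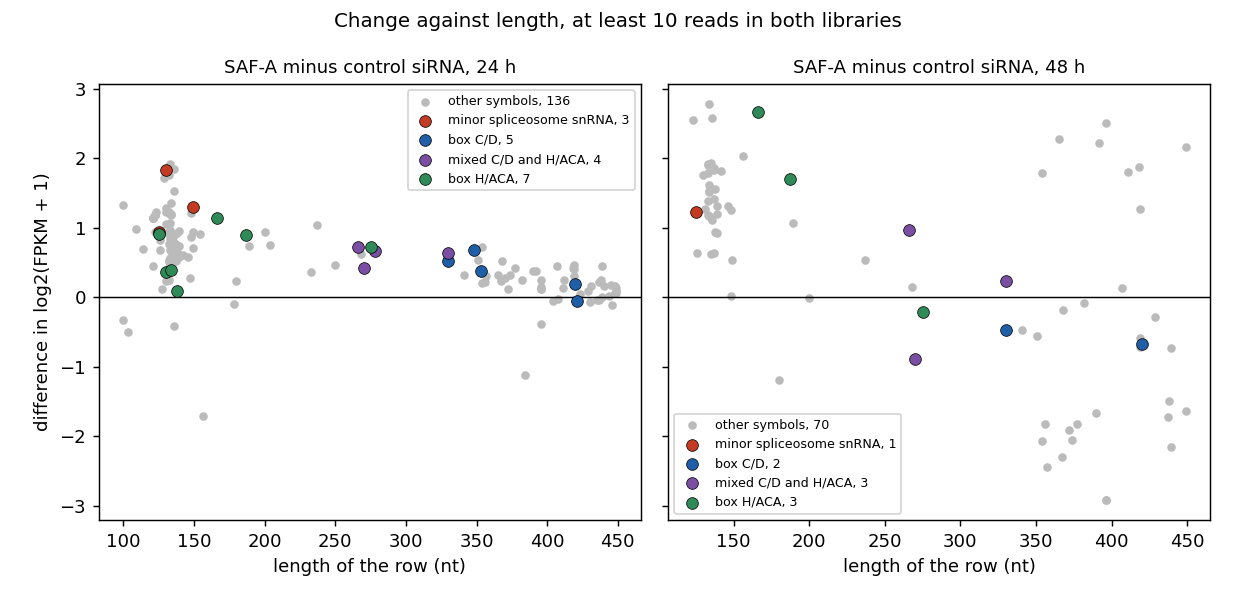
Difference in log2(FPKM + 1) between SAF-A and control siRNA against the length of the row in nt, for members (coloured by class) and other symbols of 100 to under 450 nt (grey), each with at least 10 reads in both libraries. At 24 h the differences fall with length in both sets, and at 48 h the members shorter than 200 nt lie above 0 while SCARNA2, the longest member shown, lies below it.

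Over time in control cells the set moved little in sum. All members together gave 553 (544 to 561) RPM at 24 h and 582 (573 to 591) at 48 h with control siRNA, a ratio of 1.05 (1.03 to 1.08). With SAF-A siRNA they gave 747 (737 to 756) and 478 (440.3 to 519), a ratio of 0.641 (0.589 to 0.696). In control cells 4 of 27 members (14.8%) were called higher at 48 h (SCARNA9L, SCARNA27, SCARNA23 and SCARNA11). SCARNA27 and SCARNA11 had 1 read each and SCARNA23 had 6 in the control library at 48 h, and none at 24 h. The 3 called lower (11.1%) were SCARNA20, RNU12 and SCARNA5. The shares were 1.79% and 1.36% of all symbols and 16.9% and 9.32% of the other symbols of 100 to under 450 nt. All 5 C/D scaRNAs were higher in the control library at 48 h than at 24 h, SCARNA9L by 2.24 times (1.49 to 3.41). Of the 4 mixed RNAs, SCARNA5 was at 0.456 (0.355 to 0.583), SCARNA6 at 0.597 (0.489 to 0.726) and SCARNA10 at 0.747 (0.693 to 0.804) of its value at 24 h, while SCARNA12 was at 1.01 (0.950 to 1.08).

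With SAF-A siRNA, 5 members were called higher at 48 h than at 24 h and 7 lower, against 15.1% and 17.8% of all symbols and 14.4% and 39.4% of the other symbols of 100 to under 450 nt. Of the 7, 5 had no read in the SAF-A 48 h library, and SCARNA17 had 2. Only SCARNA12, at 0.409 (0.296 to 0.550), had an interval that excluded 1, and of the 5 called higher only SCARNA1, at 2.37 (1.19 to 4.28). U6atac was 1.86 times higher (1.15 to 2.87) without reaching 2-fold. These time comparisons use the same libraries as the siRNA comparisons and are no separate evidence.

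Most of the scaRNAs lie in introns, which allows each to be set beside its host. By coordinates, 20 members lay on the same strand in an intron of 21 host genes, which made 22 pairs, SCARNA5 and SCARNA6 sharing ATG16L1 and SCARNA16 and SCARNA27 having 2 hosts each. RNU11, RNU12, RNU4ATAC, RNU6ATAC, SCARNA2 and SCARNA17 had no host on their strand. In 6 of the 22 pairs (SCARNA27 with both hosts, SCARNA23, SCARNA8, SCARNA11 and SCARNA14) the member had no read in the control library at 24 h, so the size of its difference is set by the pseudocount. In the other 16, the member's log2 difference at 24 h was above that of its host in 15, SCARNA3 in COP1 being the exception, and the median was 0.58 for members and -0.05 for hosts. The median was 0.44 over the 236 other symbols of 100 to under 450 nt and -0.07 over symbols of 300 nt or longer. Pairs of other short RNAs and their hosts were not counted, so whether scaRNAs differ from them was not tested. No host was called at 24 h, and their differences ran from -0.52 to 0.29. ATG16L1, an autophagy gene, was at 12.8 FPKM with control siRNA at 24 h, 15.9 with SAF-A siRNA at 24 h, 12.8 with control siRNA at 48 h and 13.6 with SAF-A siRNA at 48 h, so the low values of SCARNA5 and SCARNA6 in the control at 48 h had no counterpart in the host. PPP1R8, the host of SCARNA1 and a regulatory subunit of a nuclear phosphatase, was at 31.9, 28.0, 30.6 and 25.4 FPKM. PHB2, the host of SCARNA12 and a mitochondrial prohibitin, was at 125, 116, 121 and 142 FPKM.

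At 48 h the member was above its host in 13 of the 16 pairs whose member had reads in both libraries, again without a count for other short RNAs. Of the 21 hosts, 2 (9.5%) were called higher and 7 (33.3%) lower, against 14.2% and 20.1% of all symbols. EIF1AX, a translation initiation factor that hosts SCARNA9L, was at 44.3 FPKM with control siRNA and 6.03 with SAF-A siRNA at 48 h. TMEM167A, the host of SCARNA18, was at 31.2 and 10.2 FPKM, while SCARNA18 itself was at 89.6 and 526. USP32, a deubiquitinase that hosts SCARNA20, was at 14.1 and 36.5 FPKM. The 2 hosts of SCARNA16 went opposite ways, SEC14L1 at 28.9 and 59.2 FPKM and SNHG20 at 3.28 and 0.837 FPKM. The last value is low, and its deposited interval ran from 0 to 2.29 FPKM.

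**Figure D4:**
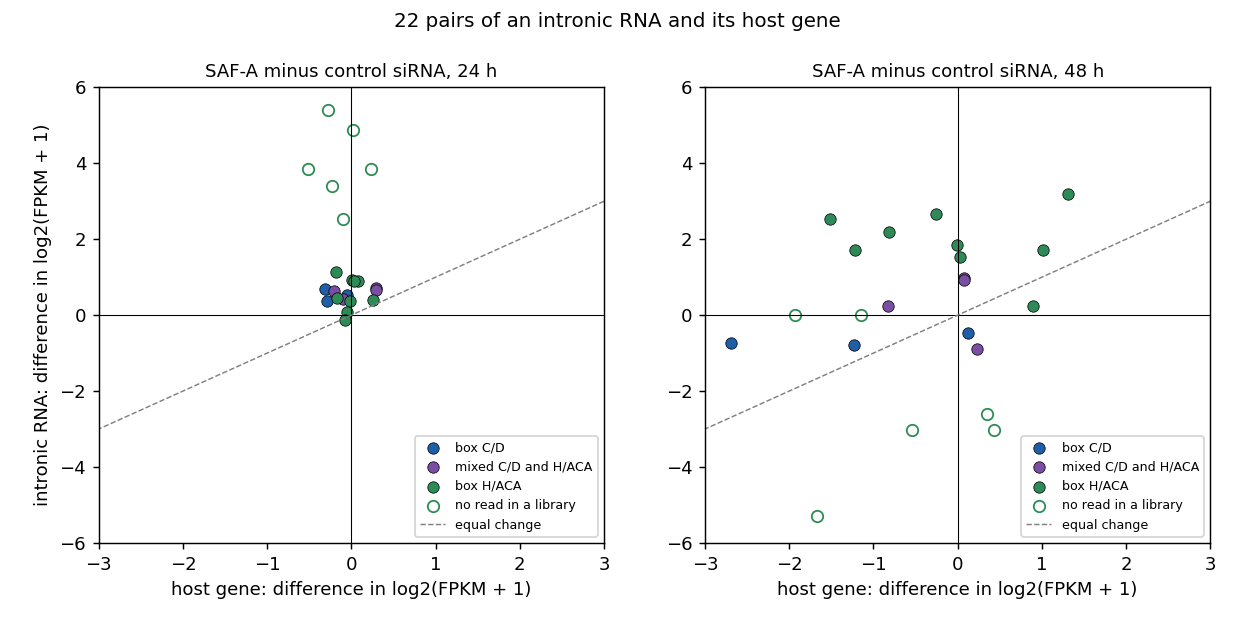
Difference in log2(FPKM + 1) between SAF-A and control siRNA of each intronic member against that of its host gene, for 22 pairs at 24 h and at 48 h, with the line of equal change dashed and open points for members with no read in at least 1 of the 2 libraries. At 24 h hosts lie between -0.52 and 0.29 and 15 of 16 filled points lie above the line, and at 48 h hosts spread from -2.69 to 1.31 and 13 of 16 lie above it. Pairs of other short RNAs and their hosts are not shown.

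The protein genes that build these RNAs, or work with them in modification, differed little at 24 h, and at 48 h the share of them called lower was close to that of all symbols. Of 86 genes in 5 lists, 85 reached the filter, and at 24 h 0 were called higher and 1 lower, with a median log2 difference of -0.13. The lowest was INTS14, a subunit of the Integrator complex that cleaves snRNA precursors, at 6.91 FPKM with control siRNA and 1.11 with SAF-A siRNA at 24 h, but at 0.991 and 13.8 FPKM at 48 h, so its 4 values follow neither siRNA nor time. LSM6, of the ring that binds U6, was at 26.8, 14.9, 29.8 and 1.41 FPKM, lower with SAF-A siRNA at both times. Among genes that averaged 5 FPKM or more, the highest at 24 h were SNRPG, an Sm protein, at 51.1 and 81.5 FPKM, and LSM3, of the U6 ring, at 65.8 and 95.03 FPKM, both under 2-fold.

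At 48 h 3 of the 85 (3.5%) were called higher and 20 (23.5%) lower, with a median of -0.32, against 14.2% and 20.1% of all symbols and a median of -0.12. The lower share was near that background. Of 19 genes of the Cajal body scaffold and the scaRNA proteins, 7 (36.8%) were called lower and 0 higher with a median of -0.51. COIL, coilin, the scaffold of the Cajal body, was at 13.7, 14.3, 13.98 and 10.996 FPKM. DKC1, dyskerin, the pseudouridine synthase, was at 49.6, 40.6, 47.2 and 32.9 FPKM, and FBL, fibrillarin, the methyltransferase, at 84.2, 86.6, 96.8 and 94.1 FPKM. WRAP53, which brings scaRNAs to the Cajal body, was at 13.7, 11.998, 12.1 and 9.17 FPKM. None of these 4 was called in any SAF-A comparison. NHP2, a dyskerin partner in the H/ACA particle, was at 87.2 and 35.6 FPKM at 48 h. Of 20 genes of the SMN complex and import, 1 was called higher and 3 lower, the lowest being GEMIN4 at 13.6 and 1.63 FPKM. Of 16 Sm and LSm genes 0 were higher and 3 lower. Of 24 genes of snRNA transcription and 3′ ends 2 were higher and 6 lower, INTS14 and ZNF143, a transcription factor at 7.79 and 18.6 FPKM, being the highest. Of 6 genes that act in particle reassembly or with U6, 0 were higher and 1 lower.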

How the data were processed

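RNA-seq was deposited for 4 libraries of RPE1 cells, 1 per siRNA and time. The authors aligned reads to hg19 with TopHat2 2.0.10 and Bowtie2 2.1.0 and estimated FPKM with Cufflinks 2.2.1, as far as these names in the submitters' processing notes tell. Deposited FPKM values come with 95% bounds, per the file headers. Strand use and the treatment of multiply mapped reads are not given in the sources used here.

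Each of the 47338 rows is a RefSeq transcript. Rows were joined to symbols (97.1% matched), and FPKM and bounds were summed per symbol. Coverage divided by FPKM gave the mapped reads of each library, and reads per row were FPKM times effective length times that number, with fragments of 200 ± 80 nt between 48 and 440 nt. Scripts were tested on simulated data. Python 3.11.15, numpy 2.4.6, pandas 2.3.3, scipy 1.17.1 and edlib 1.3.9.post1 were used.

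With 1 library per group no model was fitted, including an additive one of siRNA and time. Samples were grouped by their labels, and differences of log2(FPKM + 1) of at least 2-fold were called. Intervals of reads are exact Poisson, and those of ratios exact conditional (Clopper-Pearson). PCR reads without molecular identifiers are not independent molecules, so intervals and floors of 3 counts cover counting error only. Named are HNRNPU, members 100 nt or longer that averaged 5 FPKM or more, and members under 100 nt or listed at 0. Some hosts of named members are named too. Of the protein lists, the 2 highest and 2 lowest in each SAF-A comparison above the same average are named. COIL, DKC1, FBL, WRAP53 and NHP2 were named after their values were seen. The members, lists and rules were chosen with earlier results of these data known. Alternatives were a pseudocount of 0.1, no filter, a length of at least 100 nt, deposited intervals that must not overlap, rescaling to TPM, centring on genes that were 300 nt or longer and averaged 5 FPKM or more, and, added after seeing the data, a counting interval that must exclude 1.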

Additional observations from a re-analysis of the deposited data

Results flagged for a closer look

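For 10 members the difference under SAF-A siRNA had opposite signs at 24 h and 48 h. Each direction rests on 1 library per siRNA, and the difference between the time points was not tested. SCARNA2, SCARNA7, SCARNA12 and SCARNA13 have at least 44 reads in every library. Their log2 differences at 24 h and 48 h were 0.20 and -0.67 for SCARNA2, 0.53 and -0.46 for SCARNA7, 0.42 and -0.88 for SCARNA12, and 0.73 and -0.20 for SCARNA13. SCARNA9 went from 0.38 to -0.78 and SCARNA9L from 0.69 to -0.74, each with 2 reads in the SAF-A library at 48 h. SCARNA3 was at -0.12 at 24 h and 1.53 at 48 h, the last from 1 read.

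The remaining 3, SCARNA23 (5.40 and -5.28), SCARNA27 (3.84 and -3.03) and SCARNA11 (2.53 and -2.62), are listed at 0 in 1 library of each comparison and have at most 7 reads in the other. Their log2 values depend on the pseudocount and are no measure of size.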

How the results depend on the processing

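No paired analysis was possible because each group had 1 library and no replicate numbers to share, and a model of siRNA with time as a block was not fitted. Leaving out a replicate was not possible for the same reason. Of the 56 member counts recomputed under an alternative, 43 stayed within 1.5 times the reported count. A pseudocount of 0.1, no filter, a length of at least 100 nt and centring moved none of them beyond that. With deposited intervals that must not overlap, the members higher and lower with SAF-A siRNA at 48 h fell from 9 to 3 and from 4 to 2, those higher and lower with time in control cells from 4 to 2 and from 3 to 1, and those with time under SAF-A siRNA from 5 to 0 and from 7 to 3. Where the counting interval had to exclude 1, 5 members were higher at 24 h, 5 higher and 0 lower at 48 h, 2 higher with time in control cells, and 1 higher and 1 lower with time under SAF-A siRNA. Both settings can by construction only remove calls, and neither was counted over other symbols. Rescaling to TPM raised the members higher with time under SAF-A siRNA from 5 to 8. The median difference with time in control cells, 0.019, became -0.013 after centring, and the other 19 recomputed medians kept their sign and stayed within 1.5-fold. HNRNPU in the SAF-A libraries stayed within its interval of 9.98% to 13.04% of control at 24 h and 7.92% to 14.5% at 48 h. In the SAF-A library at 48 h, 13 members had 1 to 9 reads and 9 had none, so a change of a member under 150 nt was often not detectable there.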

Other observations

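SCARNA16 and the microRNA precursor MIR6516, whose rows share 77 bases, differed in their course. SCARNA16 was at 770.1, 1440, 468 and 1526 FPKM in the control and SAF-A libraries at 24 h and the control and SAF-A libraries at 48 h, while MIR6516 (81 nt) was at 1059, 1267, 60.6 and 0.000741 FPKM in the same order. The deposited interval of MIR6516 in the last library ran from 0 to 2514 FPKM. The value of a row under 100 nt is unstable, and how the reads of the shared bases were divided between the 2 rows was not tested.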
